A study of Caenorhabditis elegans with 146 samples.

Results

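The libraries described here are single -1 oocytes of Caenorhabditis elegans, sorted by how much RNA of 2 putatively spermathecal genes each carried. The members were chosen by measured values, namely the TPM of ule-3 and ule-5. For each of the 15 -1 oocyte libraries marked as used in the deposited quality table, a score was taken as the mean of log2(TPM + 1) of ule-3 and ule-5, where TPM is a length-normalized share of a library's transcripts. Within each of the 2 batches named in that table, libraries above the batch median were called high and those below it low, which gave 7 high and 7 low libraries and left out 1 library that was itself the batch median. These 14 libraries belong to 19 -1 oocyte libraries and to 146 libraries in the whole series. As the groups were cut from ule-3 and ule-5, those 2 genes are described without a test, and every comparison below is an association among libraries.

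The series profiled single gonad segments, single oocytes and single zygotes by RNA-seq. All worms were well-fed gravid hermaphrodites of strain AZ212, which carries a histone H2B::GFP transgene driven by the germline promoter pie-1. High and low oocytes thus share strain, feeding and tetramisole immobilisation, and the labels give no treatment that separates them. The sheath cells that wrap the gonad were taken along with the oocytes, sperm could be released during dissection, and each library is 1 oocyte of 1 worm, so the p-values below measure the spread between worms.

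The -1 oocyte is the most proximal oocyte of a gonad arm and lies beside the spermatheca, a contractile pouch that stores sperm and is where fertilization takes place. Ovulation pushes the -1 oocyte into the spermatheca, and the zygote then passes to the uterus. ule-3 and ule-5 take their name from uterine lumen expression and were among the genes that the study listed as putatively spermathecal, together with 23 others. For most, but not all, of the listed genes with in situ images the study saw transcripts in the spermatheca region. In a bulk library of this kind, fewer spermathecal cells and less RNA per cell cannot be told apart, and neither can RNA inside the oocyte and RNA stuck to its outside.

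ule-3 lies at chrV:10793798-10794924 and ule-5 at chrX:11883127-11884042 (WBcel235). ule-3 reached 1625 TPM in the lowest of the 7 high oocytes, a median of 6160 TPM and 14057 TPM in the highest, against 12.9, 2776 and 4597 TPM in the 7 low oocytes. ule-5 reached 1249.5, 27470 and 39194 TPM in the high oocytes, against 0.396, 6927 and 11269 TPM in the low. Within each batch ule-5 did not overlap between the groups, while ule-3 overlapped in batch A.

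The score itself shows what the split separates. In batch A the 5 high oocytes scored 12.92 (worm 15), 13.64 (worm 28), 13.67 (worm 30), 13.95 (worm 25) and 14.33 (worm 23). The 5 low oocytes scored 12.81 (worm 7), 12.54 (worm 29), 12.21 (worm 32), 12.19 (worm 21) and 5.03 (worm 20). In batch B the high oocytes scored 13.95 (worm G) and 10.48 (worm F), the low 6.10 (worm E) and 2.14 (worm C), and the left-out oocyte of worm D scored 10.41. Of the low oocytes, those of worms 20, E and C almost lacked these transcripts, while the other 4 sat close to the lowest high oocyte of their batch. At the edge of the rule, worm 15 (high) and worm 7 (low) had 2378 and 4597 TPM of ule-3 and 25389 and 11269 TPM of ule-5, so the 2 genes ranked them in opposite order.

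**Figure D1:**
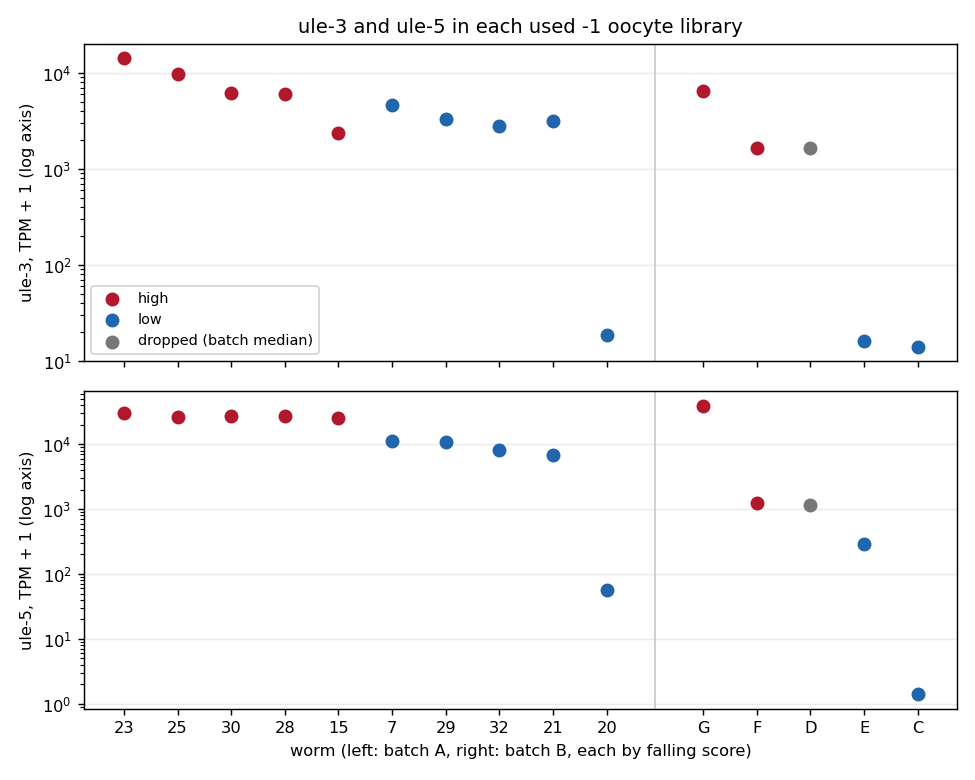
TPM + 1 of ule-3 (top) and ule-5 (bottom) on log axes in the 15 used -1 oocytes, ordered by falling score within batch A (left) and batch B (right), each point 1 library coloured by group. The oocytes of worms 20, E and C lie far below the rest. The 4 other low oocytes, all of batch A, lie under the high ones of that batch for ule-5. For ule-3 they lie above worm 15.

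RNA of the putatively spermathecal genes made up a large part of some of these libraries. The 25 listed genes together took 1.66% of all gene TPM in the lowest high oocyte (worm F), a median of 24.4% and 38.4% in the highest (worm G). In the low oocytes they took 0.0143% (worm C), a median of 6.08% and 11.9% (worm 7). Across used libraries of other stages the same sum had a median of 0.0192% in 13 -2 oocytes and 0.00340% in 6 zygotes. The study chose the list for high levels in -1 oocytes, a rise from -2 oocytes and a fall to zygotes. This contrast between stages is therefore a description.

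The make-up of that RNA was similar, though not identical, across oocytes. In the 12 oocytes with a score above 10, Y37D8A.19 supplied a median of 25.8% of the summed TPM of the 25 genes (13.4% to 42.9%) and was among the 5 largest in all 12. ZC373.2 supplied a median of 14.5%, Y62H9A.5 10.9% and ule-5 10.3%. Apart from ule-5, these leading genes have only a sequence name. The ratio of ule-5 to ule-3 TPM moved more, from 2.16 (worm 23) to 10.7 (worm 15) in batch A. In batch B it was 6.13 in worm G but 0.769 in worm F and 0.698 in worm D. D1054.10 supplied 17.6% of the list's TPM in worm F and 13.8% in worm D, against a median of 6.24% over the 12. In worm G, ZK813.1 supplied 13.1%, against a median of 1.68%.

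Some of these genes sit side by side in the genome. Of the 25 genes, 12 have another of the 25 as the next protein-coding gene, and 11 of the 25 are on the X chromosome. The same shares over all genes were not taken, so both counts are a description. Y62H9A.3, Y62H9A.4, Y62H9A.5 and ule-5 follow one another at chrX:11879110-11884042. D1054.10 ends 922 bp before ule-3 on chromosome V, F55B11.2 and F55B11.3 are neighbours on chromosome IV, and ZK813.7 and ZK813.1 are neighbours on the X chromosome. Whether reads were shared between neighbouring genes was not tested.

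The first comparison asked which other genes differ between high and low oocytes once batch is taken into account. edgeR's quasi-likelihood test on the deposited counts, with batch as covariate, called 0 of 7798 genes (0%) by the thresholds used here, an adjusted p (Benjamini-Hochberg) below 0.05 with more than 1.5-fold change. The smallest adjusted p was 0.323, for acp-2. At an unadjusted p under 0.05 there were 211 genes higher in the high oocytes (2.71%) and 174 lower (2.23%), together 4.94% of the genes tested. DESeq2 on the same counts called 13 genes (0.167%), 12 higher and 1 lower. On a single set of drawn counts with known differences, DESeq2 called more unchanged genes than edgeR did, and more than its threshold allows. Those counts were drawn from edgeR's own fit, which can favour edgeR, so they do not rank the tools. The 13 are given with that caution.

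The 23 other genes of the spermathecal list lay on 1 side. All 23 passed the low-count filter, all 23 had a log2 fold change above 0 (46.7% of all genes tested did), and their median log2 fold change was 3.30, against -0.03 over all genes tested. Of the 23, 8 had an unadjusted p under 0.05, all higher, and 0 passed the adjusted threshold. The study chose the list from these same libraries for high levels in -1 oocytes and a stage pattern like that of ule-3 and ule-5. The genes also share neighbourhoods and libraries with ule-3 and ule-5, so the count is no independent evidence.

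Y62H9A.5, which lies 226 bp from ule-5, was at 2403 TPM in the lowest high oocyte, a median of 26153 TPM and 53297 TPM in the highest, against 27, 7375 and 10543 TPM in the low oocytes. Within each batch no low oocyte reached a high one. Its log2 fold change was 3.23 (SE 1.29, edgeR adjusted p = 0.964). F17E9.4 had the smallest unadjusted p of the list, at 120, 5767 and 7578 TPM in high and 15, 1563 and 4121 TPM in low oocytes. Again the groups did not overlap within a batch, and its log2 fold change was 3.19 (SE 1.05, unadjusted p = 0.00835, edgeR adjusted p = 0.964).

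Y37D8A.19, the most abundant of the list, ran from 2607 to 103481 TPM in the high oocytes with a median of 64635 TPM, and from 0 (worm C) to 44259 TPM in the low ones with a median of 15553 TPM. Its groups overlapped in batch A, where the lowest high oocyte had 43182 TPM. Its log2 fold change was 2.91 (SE 1.6, edgeR adjusted p = 0.964). In all, 5 of the 23 genes had every high oocyte above every low oocyte within both batches: F17E9.4, Y62H9A.5, ZK813.3, ZC373.2 and F57C2.4. Over all genes tested, 7 of 7797 did (0.0898%). The other 2 were acp-2, an acid phosphatase gene, and C04H5.7.

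**Figure D2:**
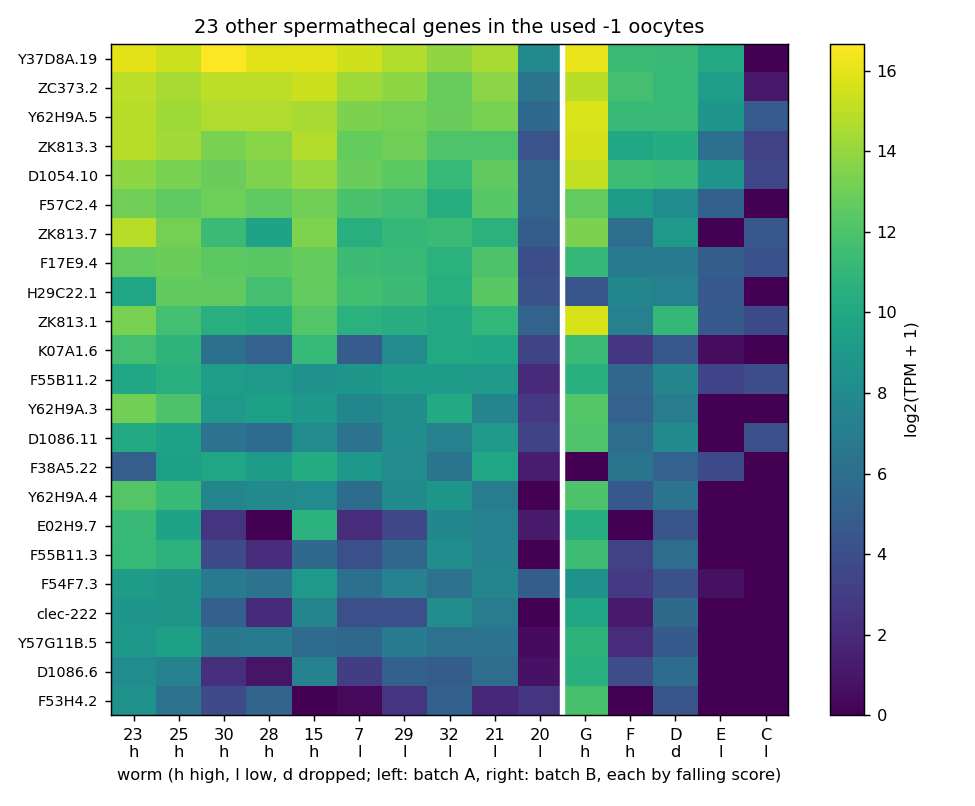
log2(TPM + 1) of the 23 other spermathecal genes (rows, by falling median share of the list) in the 15 used -1 oocytes (columns, by falling score within batch A, left, and batch B, right). Levels mostly fall with the score in both batches, and worms 20, E and C are dark in nearly every row.

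**Figure D3:**
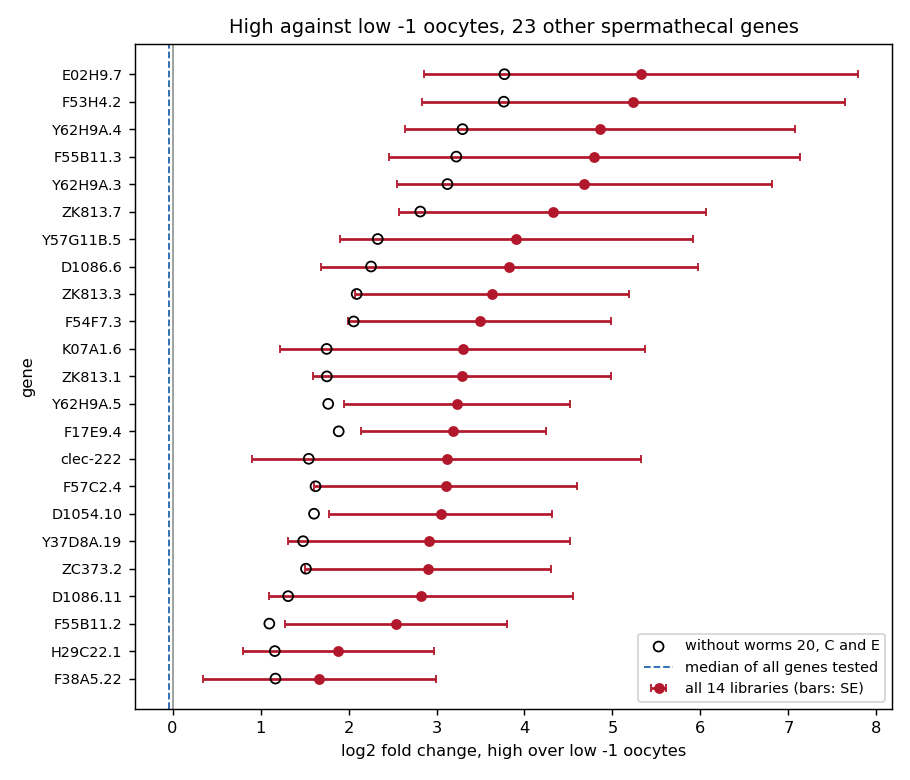
log2 fold change of high over low -1 oocytes for the 23 genes, with batch as covariate. Filled points are the 14 libraries with bars of 1 SE, open points leave out worms 20, C and E, and the dashed line is the median of all genes tested. All 23 lie right of 0 in both fits, and the median falls from 3.30 to 1.77 when the 3 libraries are left out.

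The size of these differences rests in part on the 3 oocytes that nearly lacked the transcripts. Worm C had 9 of the 23 genes at 1 TPM or more and worm E 11, against 18 to 23 in batch A. Without worms 20, C and E all 23 genes were still above 0, with a median log2 fold change of 1.77, and edgeR called 0 of 8759 genes. In batch A alone the median was 2.14 and edgeR called 0 of 7208 genes. A term for a different effect in the 2 batches was called in 0 of 9015 genes, with 12.1% of all genes and 18 of the 23 at an unadjusted p under 0.05, where batch B contrasts 2 oocytes with 2.

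The second comparison used the score itself as a continuous term over all 15 used oocytes, so that no library was dropped. Libraries with little ule-3 and ule-5 thus entered with their own low scores. edgeR then called 102 of 8280 genes at an adjusted p under 0.05, of which 95 (1.15% of the genes tested) rose with the score and 7 (0.0845%) fell. At an unadjusted p under 0.05 there were 945 genes, 11.4% of those tested. That number was 604 of 8977 without worm G and 501 of 8562 (5.85%) in batch A alone. The score term was not checked on drawn counts, so these numbers are a description. Of the 95, 17 were among the 23 listed genes and 78 were not. The median change over all genes tested was 0.00 per unit of score, and that of the 23 genes was 1.04, with all 23 above 0. Without worms 20, C and E that median of the 23 genes was 1.65, with 21 of the 23 above 0 and 14 called. That fit had 2082 of 8872 genes (23.5%) at an unadjusted p under 0.05. As the study chose the list for likeness to ule-3 and ule-5, the counts of listed genes are no independent evidence.

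Y62H9A.4 had the steepest slope of the listed genes, at 2.15 log2 units per unit of score (SE 0.17, edgeR adjusted p = 2.24e-06). Y62H9A.5 and D1054.10, the neighbours of ule-5 and ule-3, had slopes of 1.01 (SE 0.09) and 1.01 (SE 0.09). The 6 listed genes that were not called were F53H4.2, F54F7.3, E02H9.7, D1086.11, H29C22.1 and F38A5.22, with adjusted p from 0.0727 to 0.466. As a description with no test, genes were ranked by how closely their log2(TPM + 1) tracked the score over the 15 oocytes, after batch means were removed. The first 5 were Y62H9A.5 (Pearson r = 0.99), D1054.10 (0.98), ZK813.3 (0.98), F57C2.4 (0.98) and ZC373.2 (0.96). All are of the list, which the study chose for likeness to ule-3 and ule-5.

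**Figure D4:**
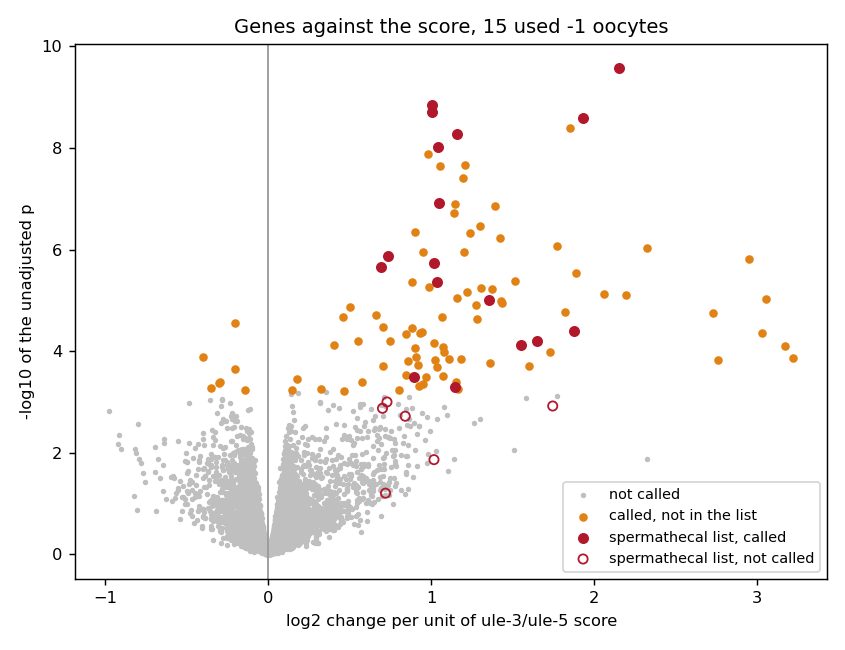
Change in log2 level per unit of score (x) against -log10 of the unadjusted p (y) for 8280 genes in the 15 used -1 oocytes. Called genes are coloured, and genes of the spermathecal list are red. Of 102 called genes, 95 lie to the right of 0, and 17 of those are of the list.

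Among the 78 other genes that rose were 2 known from the spermatheca, by expression or by function. sth-1, named for its expression there, was at 123, 76.9, 53.2, 20.5, 19.8, 12.1 and 0 TPM in the high oocytes of worms 23, 25, 15, G, 28, 30 and F. In the low oocytes it was at 15.4, 10.7, 7.65 and 5.68 TPM in worms 21, 29, 32 and 7 and at 0 in worms 20, C and E. Only worm 30 and worm F, among the high oocytes, lay below the highest low one. Its slope was 1.43 (SE 0.18, edgeR adjusted p = 0.000258).

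fkh-6, a forkhead transcription factor required to form the spermatheca and sheath, was at 4.47 to 19.7 TPM in the high oocytes (median 13.2) and 0.400 to 12.3 TPM in the low (median 4.66). The ranges overlapped, and its slope was 0.50 (SE 0.09, edgeR adjusted p = 0.00255). No other gene of the list of 26 genes of spermathecal structure and contraction was called. Of its 25 genes tested in the high against low comparison, 14 were above 0 with a median log2 fold change of 0.32. Beside sth-1 and fkh-6 it held 1 more gene at an unadjusted p under 0.05, nmy-1, a non-muscle myosin heavy chain, at 1.57 (edgeR adjusted p = 0.964).

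A few of the remaining genes that rose are given here, picked out after their values were seen. chhy-1, a chondroitin hydrolase, was at 43.9 TPM in worm 23 and 30.5 TPM in worm 25, at 4.04 to 8.74 TPM in the other high oocytes of batch A, at 1.01 and 0 TPM in worms G and F, and at no more than 2.43 TPM in any low oocyte. Its slope was 1.86 (SE 0.16), and it was called in each of the 15 fits that left out 1 oocyte. The transthyretin-related genes ttr-2, ttr-14 and ttr-38 rose with slopes of 0.66, 1.14 and 0.92. The C-type lectin genes clec-147, clec-190, clec-222 and clec-223 rose with slopes of 0.95, 2.73, 1.65 and 1.6, of which clec-222 is of the spermathecal list. Without worm G, ttr-14 was still called (edgeR adjusted p = 0.000478), but in batch A alone it was not (edgeR adjusted p = 0.171). The other 6 were not called without worm G, with edgeR adjusted p from 0.0762 for clec-147 to 0.381 for clec-223.

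let-268, the collagen lysyl hydroxylase, had a slope of 0.55 (SE 0.11), the collagen genes col-101, col-135 and col-140 had slopes of 1.36, 1.73 and 1.11, and mlc-7, a myosin light chain, had a slope of 0.46. None of these 5 was called without worm G, where the edgeR adjusted p was 0.118 for let-268, 0.681 for col-101, 0.231 for col-135, 0.716 for col-140 and 0.259 for mlc-7. The slope of col-101 fell to 0.86 there. Neighbours appear here too: clec-147 and C04H5.7 lie 117 bp apart on chromosome II, clec-190, M199.9 and col-135 are consecutive on chromosome IV, and ZK813.2 lies beside ZK813.7 of the list.

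The 7 genes that fell had shallow slopes, from -0.14 for ulp-1, a SUMO protease, to -0.40 for clp-4, a calpain. rbr-2, a histone H3 lysine demethylase, was at 0.392 to 33.4 TPM in the high and 3.39 to 62.4 TPM in the low oocytes, and its slope was -0.20 (SE 0.04, edgeR adjusted p = 0.00461). The others were cdk-11.1, a cyclin-dependent kinase, knl-2, a kinetochore protein gene, F54F2.9 and dhrr-1. In batch A alone, and without worm G, 0 of these 7 was called.

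How many genes follow the score depends on single libraries. With each of the 15 oocytes left out in turn the count ran from 27 to 332. Without worm G it was 27, of which 24 were among the 102, and without worm 20 it was 332. In batch A alone it was 23, all of them among the 102 and 11 of them of the list. There were 22 genes called in each of the 15 fits, 9 of them of the list, and they included chhy-1, C04H5.7, ttr-14 and snf-9, a gene of the neurotransmitter symporter family. Of these 22, ttr-14, snf-9, Y62H9A.3, C06A8.8, T25B2.2 and K11D12.13 were not called in batch A alone. Their edgeR adjusted p there ran from 0.0758 for snf-9 to 0.316 for K11D12.13. Without worms 20, C and E, ttr-14, snf-9, Y69H2.3, Y79H2A.2 and T25B2.2 were not called. Their edgeR adjusted p there ran from 0.0534 for T25B2.2 to 0.103 for Y69H2.3. sth-1 had an adjusted p of 0.0675 without worm G and 0.0286 in batch A alone. fkh-6 had 0.160 and 0.139 in these fits. When worms 20, C and E were left out 236 genes were called, 168 higher and 68 lower, of which 50 were among the 102.

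RNA of other tissues moved with the groups in single libraries. The uterine genes ule-1, ule-2 and ule-4 were at 958, 469 and 6381 TPM in worm 25 and at 622, 309 and 1969 TPM in worm G, both high. In the other 13 used oocytes they summed to at most 129 TPM. Their median log2 fold change of 7.04, with an unadjusted p under 0.05 for all 3 (edgeR adjusted p = 0.964), is that of 2 of 7 oocytes. Of the other 2 uterine markers, egl-13 and cog-1, neither passed the low-count filter. Without worms 25 and G the score fit called 23 genes, 9 of the list and 22 among the 102, and the high against low fit called 0.

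Sperm markers were high in worm 25 also. The 43 sperm genes, mostly major sperm proteins, summed to 0.176 to 2462 TPM in the high oocytes (median 15.8) and 0 to 744 TPM in the low (median 9.86), highest in worms 25 and E. Of the 43, 5 passed the low-count filter and 4 of those were above 0, with a median log2 fold change of 3.97 (4.98 without worms 20, C and E), 2 at an unadjusted p under 0.05 (msp-19 and msp-59, both higher) and 0 called (edgeR adjusted p = 0.964 for both). msp-59 was at 181, 50.2, 23.9 and 2.76 TPM in worms 25, 15, G and 28 and at 0 in the 3 other high oocytes, and at 37.6 TPM in worm E and 0 in the other low ones. The major sperm protein genes are near-identical copies, so how reads were split among them is uncertain. The 17 intestinal genes summed to 4.19 to 1961 TPM in high and 2.22 to 4607 TPM in low oocytes, highest in worms 25 and 32. The 9 that passed the filter had a median log2 fold change of 0.78, with 6 above 0 and 0 at an unadjusted p under 0.05, and it turned to -0.71 without worms 20, C and E and to -1.42 in batch A alone. The part of these other tissues in the results was not tested beyond leaving the libraries out.

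Oocyte transcripts were found in every library. All 33 oocyte genes of the marker list, among them the oocyte maturation regulator oma-1 and the yolk receptor rme-2, were at 1 TPM or more in all 15 used oocytes. Whether other stages pass the same cut was not tested. Their summed TPM ran from 7024 (worm G) to 52501 (worm F) in the high oocytes and from 21936 (worm 29) to 57767 (worm E) in the low. Of the 33 tested, 8 had a log2 fold change above 0, the median was -0.17 (0.14 in batch A alone), and 1 had an unadjusted p under 0.05, the Notch receptor glp-1 at -0.65 (edgeR adjusted p = 0.964). Pharyngeal markers were below 1 TPM in all 15. The 6 body wall muscle markers summed to 391 to 5449 TPM, and the 7 neuronal markers to 63.6 to 374 TPM. Of 5 muscle markers tested, 4 were above 0 (median log2 fold change 0.66), and 1 had an unadjusted p under 0.05. Of 4 neuronal markers tested, 2 were above 0 (median 0.26), and edgeR called 0 in either list. The 25 genes of the gonadal sheath had a median of 0.44, with 18 above 0. lev-11, tropomyosin, was at 2.34 and act-4, actin, at 1.01, both higher, while pat-3, the beta integrin, was at -0.55, each with an unadjusted p under 0.05 and an edgeR adjusted p of 0.964.

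Ribosomal protein genes leaned to 1 side as a group without any call. Of 79 tested, 78 had a log2 fold change above 0 (46.7% of all genes tested did). Their median was 0.77, and 1 had an unadjusted p under 0.05. With the score as a continuous term their median was 0.06 per unit of score, with 0 called. As these genes share the same libraries, the count is a description. Their summed TPM nevertheless overlapped between the groups, at 16072 to 57178 TPM in high and 16262 to 39636 TPM in low oocytes of batch A. In batch B the sums were 102945 and 251956 TPM in high and 53812 and 478297 TPM in low oocytes. The 23 genes of the secretory pathway had a median of 0.12, the 11 of the basement membrane -0.03 (0.04 with median-of-ratios size factors) and the 8 heat shock genes 0.05 (-0.27 without worms 20, C and E and -0.11 in batch A alone), with 0 at an unadjusted p under 0.05 and 0 called in each (edgeR; DESeq2 also called 0).

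Library quality was compared between high and low oocytes in 12 measures, each by an exact two-sided permutation test within batch over 1512 arrangements. None had an adjusted p under 0.05. Reads counted on genes were lower by 0.58 on the log2 scale in high oocytes, with 21.83 ± 1.20 (SD, n = 7) against 22.41 ± 1.53 (SD, n = 7), an exact permutation p of 0.0489 and an adjusted p of 0.294. Reads on introns were 0.102% ± 0.0902 (SD, n = 7) in high and 0.0510% ± 0.0256 (SD, n = 7) in low oocytes, with an exact permutation p of 0.0344 and an adjusted p of 0.294. Genes detected at 1 TPM or more were 7849 ± 1357 (SD, n = 7) and 7826 ± 992 (SD, n = 7), with an exact permutation p of 0.960. Counted reads ran from 1273040 to 3436017 in batch A and from 9327969 to 31071637 in batch B, so a level of 0 in batch A allows more molecules to have been missed.

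Whether a worm with a high -1 oocyte also has a higher ule-3 and ule-5 score in its -2 oocyte was asked in libraries that the rule did not use. Used -2 oocytes existed for 5 high and 3 low worms. In -2 oocytes of worms with a high -1 oocyte the score was 1.57 (worm 28), 2.72 (worm 30), 4.23 (worm F), 4.68 (worm G) and 5.88 (worm 25). In those of worms with a low -1 oocyte it was 0.42 (worm 20), 1.33 (worm C) and 7.11 (worm 32). The highest -2 score thus belonged to a low worm. The 2 other low worms were 20 and C, whose -1 oocytes had little ule-3 and ule-5. The difference within batch was 0.88, with an exact permutation p of 0.700 where the smallest possible was 0.0333. Without worm 32 it was 3.04 (exact permutation p = 0.167, where 12 arrangements allow no p under 0.0833).

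Every -2 oocyte scored below the -1 oocyte of the same worm, by at least 0.82 (worm C). The study singled out ule-3 and ule-5 in this series for their rise from -2 to -1 oocytes, so this order is a description. Between the same -2 oocytes edgeR called 0 of 7730 genes (0%), with 507 at an unadjusted p under 0.05 and a smallest adjusted p of 0.0818. Of the 16 listed genes that passed the filter there, 13 had a log2 fold change above 0, against 52.6% of all genes tested, with a median of 1.00 and unadjusted p of 0.273 or more. The 7 others did not pass the filter.

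**Figure D5:**
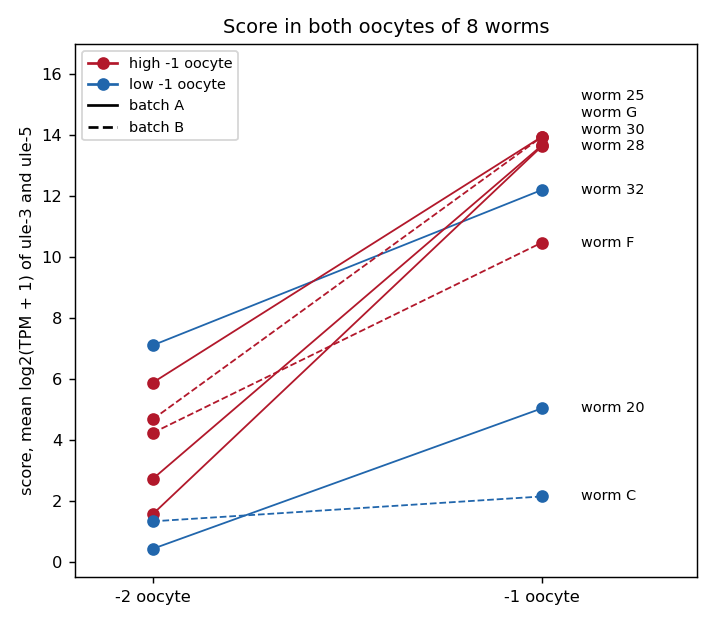
Score of ule-3 and ule-5 in the -2 and -1 oocytes of the 8 worms with both, 1 line a worm, coloured by the group of the -1 oocyte, solid for batch A and dashed for batch B. Each line rises to the -1 oocyte, a rise for which the study singled out these genes. Worm 32, with a low -1 oocyte, has the highest -2 score.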

How the data were processed

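Single -1 and -2 oocytes were each made into 1 library. The authors trimmed reads with Trim Galore, aligned them to WBcel235 with HISAT2 and counted them per WormBase WS291 gene with HTSeq, so the deposited counts are unnormalized. The deposited TPM values come from Salmon and include the spike-ins in their total, and the authors deposited fractions per library for read classes and contaminating genes. Counts cover 46927 genes, of which 44113 had a symbol. Shares of gene TPM leave the spike-ins out.

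Members, gene lists and tests were chosen with earlier results of these data known. Genes other than ule-3 and ule-5 were tested with edgeR 4.0.16 in R 4.3.3 (filterByExpr at a minimum count of 10, TMM, robust quasi-likelihood F test, batch as covariate). A call needed an adjusted p (Benjamini-Hochberg) below 0.05 and, between groups, more than 1.5-fold change. SE is the absolute log2 fold change over the square root of F. DESeq2 1.42.0, other size factors and filters, the score as a continuous term, other splits, batch A alone and leaving out each library were alternatives. Both edgeR and DESeq2 were checked on counts drawn from edgeR's fit, in which 200 genes differed between groups by known folds. The score term was not checked in this way. Single values were compared by exact permutation within batch (Python 3.11.15, numpy 2.4.6). Named were ule-3, ule-5, the study's list, genes of the marker lists and the 5 genes most like the score. Other genes were named after their values were seen. A gene level of 0 covers counting error only, and its depth differs between the batches.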

Additional observations from a re-analysis of the deposited data

Results flagged for a closer look

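Dixon's test was run in 28 groups of 5 oocytes of batch A, made of 14 measures in the high and the low oocytes. It set the highest or lowest oocyte against the other 4, and marks about 1 in 20 independent groups of normal values by chance. The measures share the same oocytes, so the count of marks is a description. The test marked 9. The score set the groups, so its own mark is no evidence. There the low oocyte of worm 20 had a score of 5.03, against 12.19 to 12.81 in the other 4. Among the high oocytes that of worm 25 stood out in 4 measures. It had 10139 genes detected against 7998 to 8206. It also had 2.06% of TPM in sperm genes against 0.0167% to 0.128%, 2.42% in intestinal genes against 0.0368% to 0.134%, and 5.47% in stress genes against 0.0731% to 0.199%. The low oocyte of worm 32 had 2.20% in intestinal genes against 0.0338% to 0.114%, and 2.52% in stress genes against 0.112% to 0.154%. Spike-ins took 2.77% in the high oocyte of worm 15 against 0.510% to 1.16%, and 11.7% in the low oocyte of worm 21 against 0.420% to 1.28%. The score taken from TPM without spike-ins gave the same high and low groups.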

How the results depend on the processing

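No paired analysis was possible because each worm gave 1 -1 oocyte library and the replicate numbers follow accession order. Between high and low oocytes edgeR called 0 genes in every fit that compared 2 groups, including each of the 14 that left out 1 library, which had 269 to 719 genes at an unadjusted p under 0.05 and a list median of 2.30 to 3.79. DESeq2 called 13. The score as a continuous term called 102 genes, 236 without the 3 libraries with a score under 10 and 23 in batch A alone. For that term, leaving out 1 library gave 27 to 332 calls, leaving out the 2 libraries with the most uterine RNA gave 23, and DESeq2 gave 328. The fits without the 3 or the 2 libraries, those in batch A alone with the score, and every alternative of the score term but the score term itself were chosen after seeing the data. None of the 12 quality measures passed in any setting. Of the single genes, H29C22.1 and F38A5.22 turned direction only without the 3 lowest libraries with the score as a term, to -0.11 and -0.91. In the -2 oocytes the difference in score was 0.88, and it turned to -0.022 with the 23 other genes and to -0.38 in batch A alone, and leaving out 1 library gave -0.49 to 3.04, the highest without worm 32. The count of genes between those -2 oocytes was 0, and 51 with no low-count filter. The cause of these moves was not tested.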

Other observations

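The 13 genes that DESeq2 called between high and low oocytes, all of them at an edgeR adjusted p of 0.323 or more, were mostly of low level. acp-2 was at 0.0636 to 5.04 TPM in the high oocytes and at most 0.200 TPM in the low. far-6, of the fatty acid and retinol binding protein family, was the 1 gene that was lower, at 0 to 2.43 TPM in high and 1.18 to 28.5 TPM in low oocytes. The others were gst-5, let-268, sth-1, clec-190, chhy-1, WBGene00014307, F43C9.2, F48A9.2, gid-2, mlc-7 and T19H5.7.

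Of the 4 -1 oocytes of batch A that were not marked as used, worms 1, 18 and 26 had 18, 23 and 23 of the 23 other listed genes at 1 TPM or more. Worm 1 had 9788 TPM of ule-5, and worms 26 and 18 scored 11.01 and 9.83. Worm 2 scored 4.88 from ule-3 alone, with ule-5 at 0, 1 of the 23 genes at 1 TPM or more and 98.7% of its TPM in spike-ins. Worms 1 and 2 had 15494 and 24587 reads counted on genes. In worm 26 sperm markers summed to 178913 TPM, and in worm 18 the uterine markers to 2819 TPM. With these 4 oocytes included and medians taken anew, edgeR called 0 of 7923 genes and the median log2 fold change of the 23 listed genes was 3.13.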
